A study of Rattus norvegicus with 60 samples.

Results

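Deltamethrin is a pyrethroid insecticide with an α-cyano group, and the comparison described here set its highest dose in the series, 3 mg/kg, against the corn oil vehicle in rat frontal cortex. The 20 samples were chosen by their labels alone: 8 rats given 3 mg/kg deltamethrin and 12 rats given vehicle, of 60 rats in all. The others received lower doses of deltamethrin or permethrin, a pyrethroid without the cyano group. All were male Long-Evans rats of postnatal day 62 to 64. They received 1 oral gavage of 1 mL/kg and were sampled 6 h later, 1 array per rat, without a genetic change or a second agent. Deltamethrin was 98.9% pure, as the 1R,3R,αS isomer. The samples cover 1 sex, 1 dose time and whole tissue.

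Pyrethroids slow the closing of voltage-gated sodium channels, so that neurons fire repeatedly. Firing in cortex is known to induce immediate early transcription factors within the hour and a slower set of neuropeptide, growth factor and kinase genes after them. A stressor of the whole animal also raises circulating glucocorticoids, which enter the brain and act through the glucocorticoid receptor on genes such as Fkbp5, and protein-damaging stress induces heat shock genes through heat shock factor.

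The values were log2 signals, 1 per probe set, so a difference of 1 is a doubling. The median value of an array lay between 7.09 and 7.20 in vehicle rats and between 7.11 and 7.18 at 3 mg/kg. The arrays fell into 3 components by their values. The largest, of 36 arrays, was called array group 2, and the others, of 14 and 10 arrays, were joined as array group 1. The replicate numbers split the same way: replicates 1 to 3 of every dose and vehicle replicates 1 to 6 made up array group 1, and the later numbers array group 2. Array group 1 thus held 3 of the 8 treated and 6 of the 12 vehicle rats, and array group 2 the other 5 and 6. No label names these groups, but their sizes equal those of the pair of animal cohorts that the study's methods combined for its arrays. Results are therefore given from group means alone and from a second fit in which array group was a block term, called the block below. The block does not separate the components joined in array group 1. Treated replicates 1 and 2 and vehicle replicates 4 and 5 lay in the component of 14 arrays. Arrays have no read depth, and precision was limited by the number of rats and by variation between arrays. The excitatory neuron markers were all present, with a lowest vehicle mean of 8.05 over 9 genes against a lowest value of 3.75 in the whole table.

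The difference between 3 mg/kg deltamethrin and vehicle was small in every probe set, and the clearest differences were higher Fkbp5 and Gpd1. With group means only, 0 of 31042 probe sets (0%) passed an adjusted p under 0.05 in limma, and 421 had an unadjusted p under 0.05. Of these, 233 were higher (0.751% of all) and 188 lower (0.606%), together fewer than the 5% that such a threshold admits without any difference. With the block, 3 probe sets passed (0.00966%): both of Fkbp5 and 1 of Gpd1, each higher. In that fit 565 probe sets were higher (1.82%) and 388 lower (1.25%) at an unadjusted p under 0.05. The median difference over all probe sets was -0.01 and the median standard error 0.08. In 0 probe sets were all 8 treated rats above all 12 vehicle rats (0%), and in 0 were all below (0%).

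**Figure D1:**
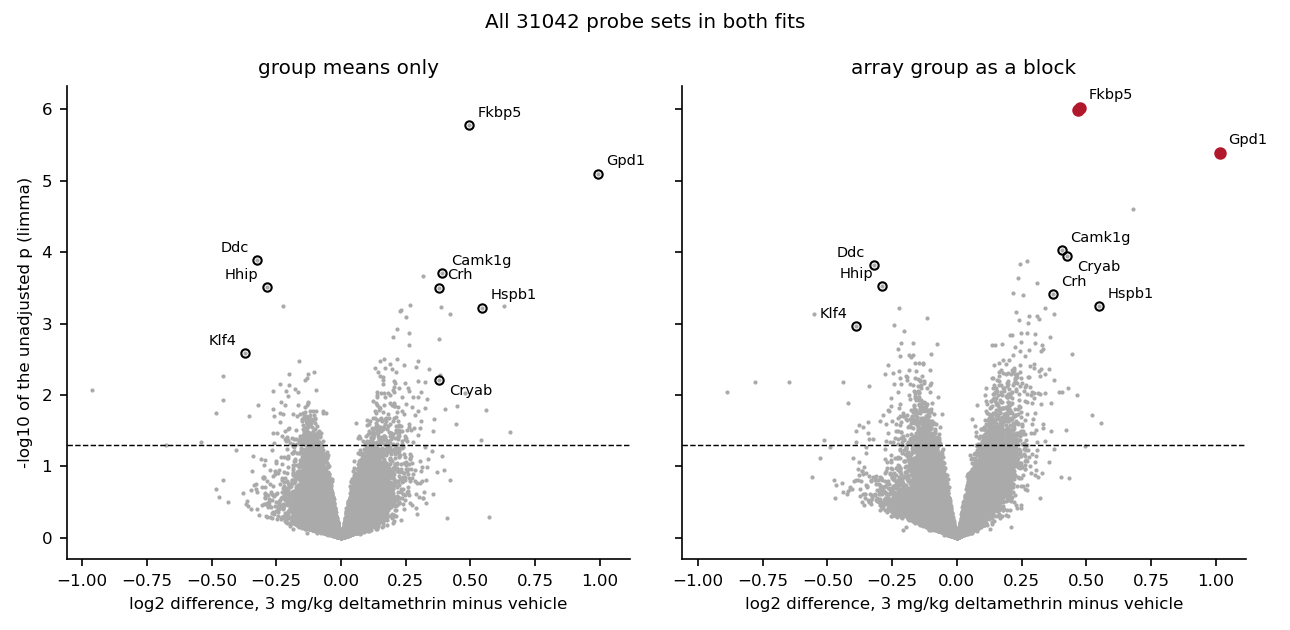
Log2 difference between 3 mg/kg deltamethrin and vehicle (horizontal axis) against -log10 of limma's unadjusted p (vertical axis) for 31042 probe sets, from group means only (left) and with the block (right). The dashed line marks an unadjusted p of 0.05, open circles are labelled genes that did not pass, and red points passed an adjusted p under 0.05: 0 on the left and 3 on the right.

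Fkbp5 encodes a co-chaperone that binds the glucocorticoid receptor complex and is itself a classical glucocorticoid target. On its brighter probe set (1388901_at) the 8 treated rats ranged from 8.58 to 9.30 with a median of 8.97. The 12 vehicle rats ranged from 7.97 to 8.92 with a median of 8.47. All 8 treated rats were above the vehicle mean and 4 were above every vehicle rat, so the groups overlapped. The mean was higher by 0.49 (SE 0.09; 8.96 ± 0.27 against 8.46 ± 0.26, SD, n = 8 and 12), a 1.41-fold difference, with an adjusted p of 0.0512 in limma. With the block the difference was 0.48 and limma's adjusted p 0.0159.

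The second Fkbp5 probe set (1380611_at) ranged from 7.58 to 8.46 in treated rats, with a median of 8.00. It ranged from 7.13 to 7.84 in vehicle rats, with a median of 7.60. Its highest treated rats were replicates 2 and 3, while those of the brighter probe set were replicates 8 and 4. The difference was 0.42 (SE 0.12, unadjusted p = 0.000731, limma) and did not pass an adjusted p under 0.05 with group means only. With the block it was 0.47, with an adjusted p of 0.0159 in limma.

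Gpd1, the cytosolic glycerol-3-phosphate dehydrogenase, links glycolysis to glycerolipid synthesis and in brain is made largely by oligodendrocytes and is induced by glucocorticoids. Its brighter probe set (1371363_at) ranged from 9.21 to 10.62 in treated rats with a median of 9.92. In vehicle rats it ranged from 8.37 to 9.95 with a median of 8.85. Vehicle replicates 4 and 7, at 9.72 and 9.95, stood above the other 10 vehicle rats, and all 8 treated rats were above the vehicle mean. The difference was 0.99 (SE 0.20), a 1.99-fold difference and the highest of all probe sets, with an adjusted p of 0.123 in limma, and 1.02 with an adjusted p of 0.0417 with the block. The second Gpd1 probe set (1369560_at) was higher by 0.63 (SE 0.17) and passed in neither fit, with an adjusted p of 0.194 in limma with the block.

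These calls rested on few rats. With the block and 1 rat left out at a time, between 0 and 4 probe sets passed over 20 fits, and in 5 fits none did. Fkbp5 1388901_at passed in 15 of the 20 fits, Fkbp5 1380611_at in 14 and Gpd1 1371363_at in 3. None passed without replicates 2, 4, 6 or 8 of 3 mg/kg or without vehicle replicate 9.

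**Figure D2:**
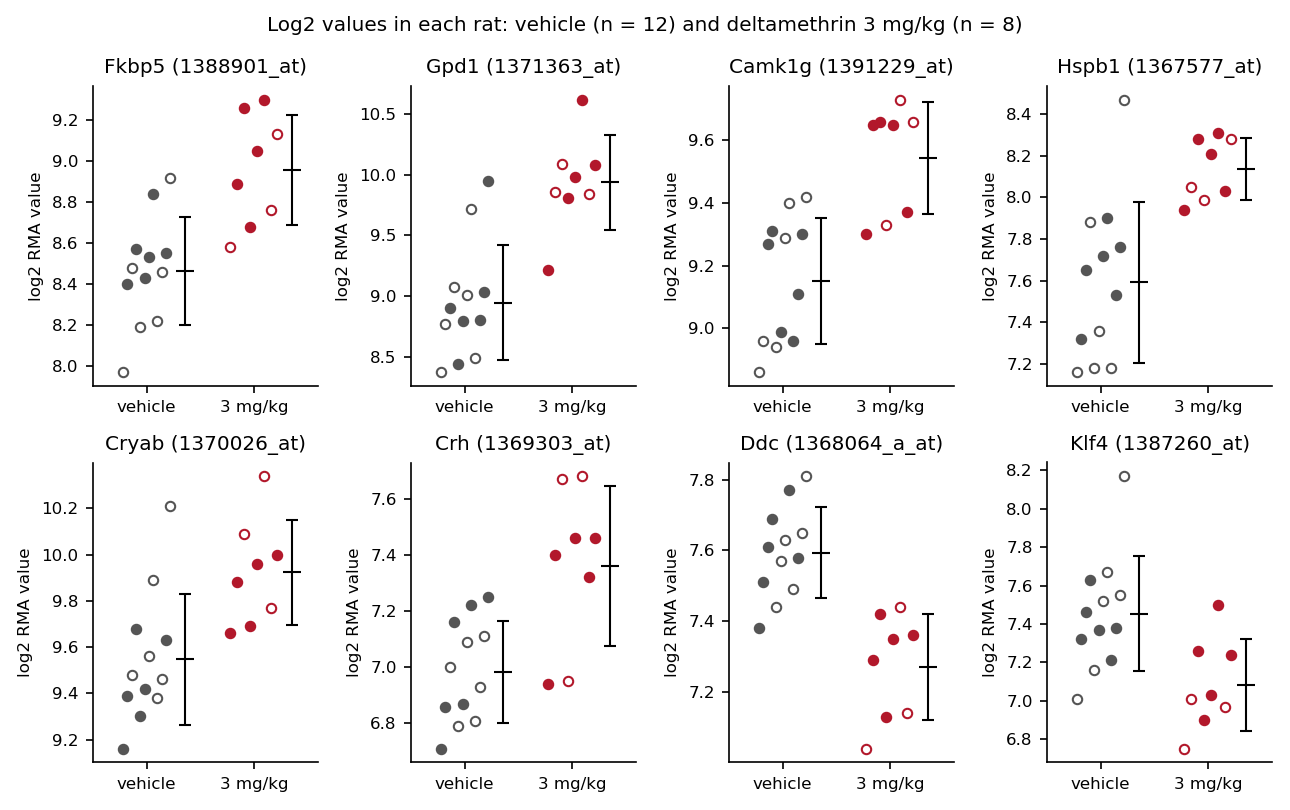
Log2 value of each rat (points), with the mean and SD beside them, in vehicle (12 rats) and 3 mg/kg deltamethrin (8 rats) for 8 probe sets; open points are array group 1 and filled points array group 2. The groups overlap in every panel, and in Fkbp5, Gpd1, Camk1g, Hspb1, Cryab and Ddc all 8 treated rats lie on the same side of the vehicle mean.

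The 12 genes with the lowest unadjusted p were taken in each direction. No adjusted p of these passed with group means only, and only those of Fkbp5 and Gpd1 passed with the block. The 12 higher genes differed by 0.20 to 0.99, or 1.15-fold to 1.99-fold, and the 12 lower genes by factors of 1.07 to 1.37. All 12 higher and all 12 lower genes kept their direction in array group 1 alone, in array group 2 alone and with any 1 rat left out. Because the genes were chosen by their p in these same rats, both the sizes and the shared direction follow largely from the choice and are descriptions.

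Camk1g encodes a calcium/calmodulin-dependent kinase of neurons. Its brighter probe set (1391229_at) ranged from 9.30 to 9.73 in treated rats with a median of 9.65, and from 8.86 to 9.42 in vehicle rats with a median of 9.19. The treated rats fell into 5 between 9.65 and 9.73, all above every vehicle rat, and 3 between 9.30 and 9.37. The difference was 0.39 (SE 0.10, unadjusted p = 0.000199, limma), a 1.31-fold difference. The second probe set (1377518_at) gave 0.40 (SE 0.16).

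Crh, corticotropin-releasing hormone, is the peptide that starts the hypothalamic stress response and is made in cortex by interneurons. Its values ranged from 6.94 to 7.68 in treated rats with a median of 7.43, and from 6.71 to 7.25 in vehicle rats with a median of 6.96. Treated replicates 1 and 8, at 6.95 and 6.94, were below the vehicle mean, and the other 6 were above every vehicle rat. The difference was 0.38 (SE 0.10, unadjusted p = 0.000313, limma).

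Of the other higher genes, Heg1, a receptor of endothelial and endocardial junctions, differed by 0.31 (SE 0.08) and Igf1r, the receptor for insulin-like growth factor 1, by 0.27 (SE 0.07). Gpatch4, a nuclear protein with a G-patch domain, differed by 0.38 (SE 0.11), and all 4 of its probe sets were higher, by 0.13 to 0.38. Ret, the signalling receptor for glial cell line-derived ligands, differed by 0.25 (SE 0.07) on 1 probe set, while its others gave 0.02 and 0.07. Ubash3b, a phosphatase of tyrosine kinase signalling, differed by 0.23 (SE 0.06), and Ets2, a transcription factor, by 0.20 (SE 0.06). The other probe set of Heg1 gave 0.14, that of Igf1r 0.15, and those of Ubash3b 0.14 and -0.04. These probe sets were summarized separately and do not always give the same size.

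Ddc, the aromatic amino acid decarboxylase that makes dopamine and serotonin, headed the lower genes. Probe set 1368064_a_at ranged from 7.04 to 7.44 in treated rats with a median of 7.32, and from 7.38 to 7.81 in vehicle rats with a median of 7.60. All 8 treated rats were below the vehicle mean and 6 were below every vehicle rat. The difference was -0.32 (SE 0.08, unadjusted p = 0.00013, limma). The second Ddc probe set (1375317_at) gave -0.13 (SE 0.10), with 4 of 8 rats below the vehicle mean.

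Hhip, a membrane antagonist of hedgehog ligands, gave -0.29 (SE 0.07) and was below the vehicle mean in 8 of 8 rats. Slc39a8, a zinc and manganese importer, gave -0.22 (SE 0.06), also in 8 of 8 rats. Klf4 and Klf2, zinc finger transcription factors of vascular endothelium that respond quickly to stimuli, gave -0.37 (SE 0.12) and -0.46 (SE 0.16), each with 7 of 8 treated rats below the vehicle mean. The 4 other Klf2 probe sets lay between -0.17 and -0.01. In array group 1 the Klf4 and Klf2 differences were -0.60 and -0.64, and in array group 2 they were -0.21 and -0.29. The difference between the array groups had unadjusted p-values of 0.098 and 0.266 in limma's interaction fit.

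The remaining lower genes differed little. Prom1, a membrane glycoprotein of progenitor and glial cells, gave -0.24 (SE 0.08) and Ifit2, an interferon-induced gene, -0.20 (SE 0.07). Pld1, a phospholipase, gave -0.20 (SE 0.07) on 1 of 5 probe sets, and the other 4 lay between -0.07 and 0.04. LOC102549303, without a known role, gave -0.21 (SE 0.08), and Cyp2j10, a cytochrome P450, -0.18 (SE 0.06). Ripor1 gave -0.13 (SE 0.05) and Bves, an adhesion and cyclic AMP binding protein, -0.10 (SE 0.04). The 2 other Ripor1 probe sets gave 0.03 each and the other of Ifit2 -0.08. Of probe sets without a gene symbol, those with the lowest p were 1390449_at and 1382619_at, higher by 0.23 and 0.22, and 1397261_at and 1385821_at, at -0.16 and -0.11.

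**Figure D3:**
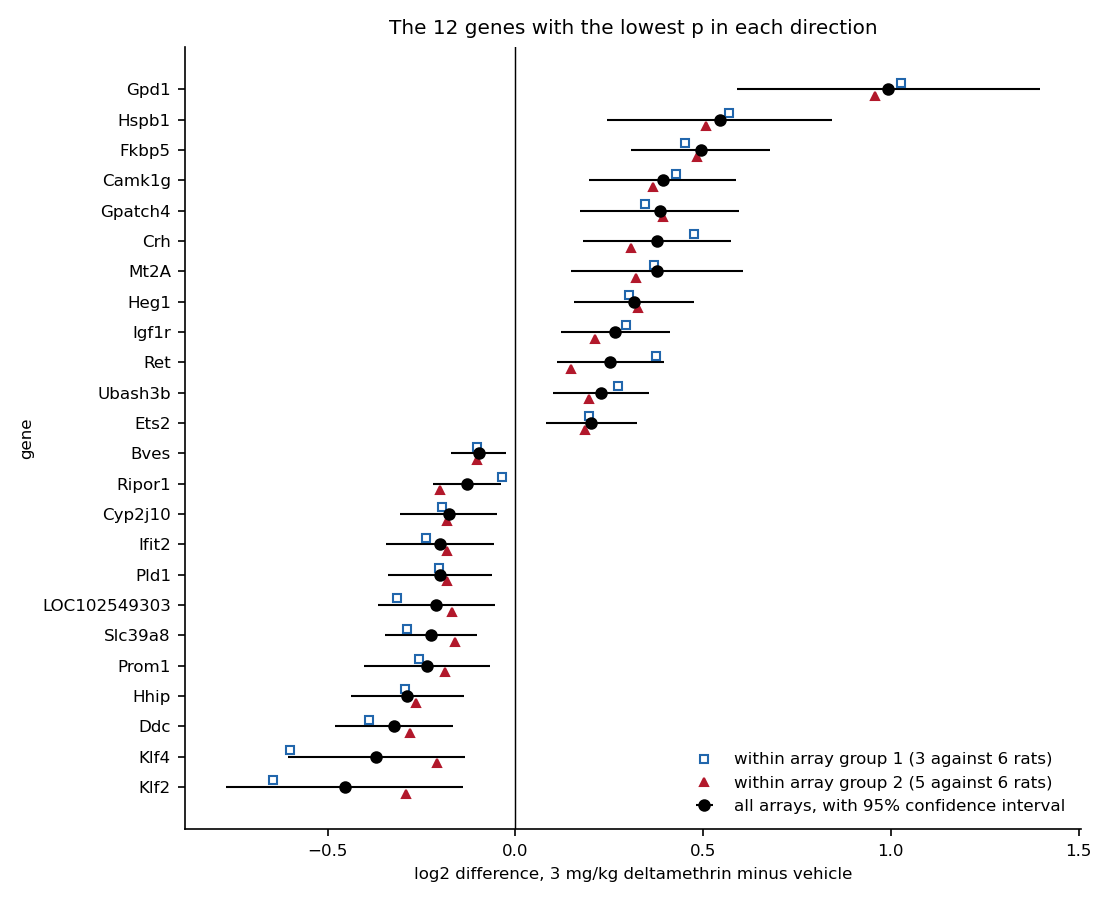
Log2 difference between 3 mg/kg deltamethrin and vehicle (horizontal axis) for the 12 genes with the lowest p in each direction, from all arrays with the 95% confidence interval (black), within array group 1 (open blue squares, 3 against 6 rats) and within array group 2 (red triangles, 5 against 6 rats). Both within-group values have the sign of the pooled value in all 24 genes, which were chosen by their p in these same rats.

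Size alone pointed to other probe sets. Only 5 of 31042 differed by more than 1.5-fold and 0 by 2-fold or more, the 5 being both of Gpd1, Hyou1, Rnf6 and the unnamed 1376463_at, of which Rnf6 and 1376463_at were singled out after their values were seen. Probe set 1376463_at gave -0.96 (SE 0.35), with treated rats from 8.74 to 11.40 and vehicle rats from 9.46 to 11.65. Rnf6, a ubiquitin ligase, gave -0.68 (SE 0.34), with treated rats from 6.03 to 8.41 and vehicle rats from 6.82 to 9.07. Both have a spread of over 2 log2 units within a group, and neither passed an adjusted p under 0.05.

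The gene lists that follow take 1 probe set per gene, the brightest. They were chosen with earlier results of these data known, so their counts are descriptions and not independent support. Fkbp5, Gpd1, Hspb1, Cryab, Camk1g, Crh and Ddc were already among the dose-responsive probe sets that the study listed from these arrays. So were Hyou1, Slc39a8, Lrg1, Pde10a and Opalin. Over all 14217 genes taken the same way the median difference was 0.01. In the fit of group means 0.879% of these genes were higher and 0.457% lower at an unadjusted p under 0.05, and with the block 2.48% were higher and 0.76% lower. In the lists of functional groups, only Fkbp5 and Gpd1 passed an adjusted p, and only with the block.

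Of 29 glucocorticoid-responsive genes measured, 23 were higher and 6 lower, with a median difference of 0.09. At an unadjusted p under 0.05, 7 were higher and 0 lower, and 11 were higher and 0 lower with the block. Beside Fkbp5 and Gpd1 they were Mt2A, Sult1a1 and, named after their values were seen, Sesn1, Xdh and Tsc22d3. Fkbp5, Gpd1, Xdh and the Mt2A probe set were in the study's own dose-responsive list, so these counts are not independent of that list. Mt2A, a metal-binding metallothionein, ranged from 10.55 to 11.64 in treated rats (median 11.10) and from 10.46 to 11.44 in vehicle rats (median 10.61), a difference of 0.38 (SE 0.11). Only 1 treated rat exceeded every vehicle rat. Sesn1, a stress-induced regulator of growth signalling, gave 0.18 (SE 0.08). Xdh, xanthine dehydrogenase, gave 0.30 (SE 0.14), and Tsc22d3, the glucocorticoid-induced leucine zipper protein, gave 0.19 (SE 0.09).

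Not all classical members had an unadjusted p under 0.05 with group means only. Sgk1, a kinase induced by glucocorticoids, gave -0.05 (SE 0.13), Per1 gave -0.15 (SE 0.12), Klf9 gave 0.10 (SE 0.15) and Ddit4 gave -0.11 (SE 0.14), with 95% intervals that include 0. These 4 were chosen after their values were seen, as familiar targets. The 11 corticosteroid receptors and receptor chaperones had 0 members at an unadjusted p under 0.05 in either fit and lay between -0.15 and 0.11, with Hsd11b2, the enzyme that inactivates corticosterone, lowest at -0.15 (SE 0.09).

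Sult1a1, a sulfotransferase, gave 0.33 (SE 0.13) and rested largely on replicate 4, at 9.80 against at most 8.90 in the other treated rats. Without treated replicate 4 the difference was 0.18. Vehicle replicate 7, at 9.28, was likewise apart from the other vehicle rats, at most 8.73, and without it the difference was 0.40. The choroid plexus marker list was 0.83 above the vehicle mean in treated replicate 4 and 0.72 above it in treated replicate 8, with the other 6 treated rats between -0.53 and -0.23. Vehicle rats spanned -0.47 to 1.64 on that list, and its part in the Sult1a1 value was not tested.

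The small and inducible heat shock proteins had 13 of 16 members higher and 3 lower, with a median difference of 0.06. Hspb1, a small heat shock protein that holds unfolding proteins in solution, ranged from 7.94 to 8.31 in treated rats (median 8.13) and from 7.16 to 8.47 in vehicle rats (median 7.59). The treated rats were tightly grouped, all above 11 of 12 vehicle rats, and below only vehicle replicate 4. The difference was 0.54 (SE 0.15, unadjusted p = 0.000601, limma), a 1.46-fold difference. Cryab, the related αB-crystallin of glia, ranged from 9.66 to 10.34 against 9.16 to 10.21 in vehicle rats, a difference of 0.38 (SE 0.13), and 0.42 with an unadjusted p of 0.000115 with the block in limma. Hspb1 and Cryab were the 2 members at an unadjusted p under 0.05, joined by Hsf1, heat shock factor itself, with the block (0.13, SE 0.12, without it). Hspb1 and Cryab were already in the study's dose-responsive list, which was known when the heat shock list was chosen. By qRT-PCR in a separate cohort of rats, the study found no pyrethroid effect on Hspb1, Bdnf or Rassf5 mRNA. The same assays at 3 mg/kg deltamethrin differed from control for Fkbp5, Gpd1, Camk1g, Ddc and Fos. The heat-inducible chaperones Hspa1a and Dnajb1, singled out after their values were seen, gave 0.05 (SE 0.10) and 0.08 (SE 0.12).

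The promoters of the heat shock list are shown because heat shock factor is known to bind inverted GAA units, searched here as GAANNTTC, which reads the same on both strands. In the 250 bases before the RefSeq start (GRCr8), 2 matches lay before Hspb1 and 1 before Dnajb1, set in capitals. The windows are chr12:26432302-26432551, minus strand, chr19:41431142-41431391, minus strand and, for Fkbp5, chr20:6543556-6543805, minus strand. Of 14 promoters found for 14 of the 16 members, 8 held the motif (57.1%), against 7.23% of all 33469 promoters of the same length. Fkbp5 is shown as well, as the gene with the lowest p; its window holds neither this motif nor the glucocorticoid receptor core site TGTTCT or its other strand AGAACA. That core site was in 8.33% of 36 promoters of 26 glucocorticoid-responsive genes and in 17.5% of all promoters. The study places the receptor site of Fkbp5 in an intron, which a window before the start cannot show. It places that of Gpd1 upstream, but no promoter of Gpd1 was available. The search therefore does not tell whether these genes have receptor sites. Hspb1 had an unadjusted p under 0.05 and Dnajb1 did not, and both windows hold the motif.
Hspb1: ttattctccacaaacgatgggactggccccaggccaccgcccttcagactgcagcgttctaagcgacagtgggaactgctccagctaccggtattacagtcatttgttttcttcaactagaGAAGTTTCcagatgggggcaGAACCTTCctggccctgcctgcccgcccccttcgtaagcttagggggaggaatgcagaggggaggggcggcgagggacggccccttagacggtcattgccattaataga
Dnajb1: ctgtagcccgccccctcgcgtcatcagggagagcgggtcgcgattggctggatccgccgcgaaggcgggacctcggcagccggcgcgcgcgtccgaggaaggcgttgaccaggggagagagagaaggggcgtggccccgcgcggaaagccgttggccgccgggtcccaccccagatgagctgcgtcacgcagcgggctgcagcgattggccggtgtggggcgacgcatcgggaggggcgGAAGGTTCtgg
Fkbp5: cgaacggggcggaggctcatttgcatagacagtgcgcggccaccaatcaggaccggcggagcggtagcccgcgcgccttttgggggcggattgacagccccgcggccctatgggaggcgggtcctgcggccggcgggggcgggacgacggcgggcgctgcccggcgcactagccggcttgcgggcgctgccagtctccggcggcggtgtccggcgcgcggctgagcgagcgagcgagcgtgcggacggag

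Late activity-regulated genes, the slower neuronal set, had the highest median of the functional lists, at 0.15, with 13 of 15 members higher. Camk1g and Crh were the 2 at an unadjusted p under 0.05, joined with the block by Vgf and Sst, both made into secreted peptides. Vgf gave 0.24 (SE 0.16), with treated rats from 11.28 to 12.36 and vehicle rats from 11.24 to 12.40. Sst, somatostatin, gave 0.09 (SE 0.10). Bdnf, the neurotrophin, gave 0.23 (SE 0.14) on the probe set 1368677_at, with 7 of 8 rats above the vehicle mean, and -0.02 (SE 0.04) on 1368678_at.

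Of the immediate early genes 15 of 20 were lower and 5 higher, with a median of -0.07. The list mean of a rat, relative to the vehicle mean, had nearly the same median in treated (-0.13) and vehicle rats (-0.12). Vehicle replicates 2, 4, 5 and 6, all of array group 1, stood at 0.15 to 0.49 and the other 8 vehicle rats between -0.28 and -0.08, while treated rats lay between -0.24 and 0.14. At an unadjusted p under 0.05, 4 were lower and 1 higher, and 3 lower and 2 higher with the block. Klf4 was described above, and Klf10, a transforming growth factor-induced zinc finger factor, gave -0.26 (SE 0.10). Nr4a1, an orphan nuclear receptor, ranged from 8.74 to 9.50 in treated rats (median 8.99) and from 8.85 to 10.82 in vehicle rats (median 9.32), a difference of -0.46 (SE 0.18). Vehicle replicates 2, 5 and 6, at 10.01 to 10.82, stood above every treated rat and above the other 9 vehicle rats. The mean of Nr4a1 also lay below the vehicle mean in every other dose group. With deltamethrin it differed by -0.18 (0.3 mg/kg) and -0.35 (1 mg/kg). With permethrin it differed by -0.51 (1 mg/kg), -0.40 (10 mg/kg) and -0.03 (100 mg/kg). In that order Klf4 gave -0.18, -0.23, -0.25, -0.27 and 0.05, and Klf10 gave 0.05, -0.16, -0.20, -0.04 and -0.05. Lower Nr4a1 and Klf4 were thus not particular to 3 mg/kg deltamethrin. Arc, the synaptic immediate early gene, named after its values were seen, gave -0.54 (SE 0.26).

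Fosb, an AP-1 component whose products persist, was the higher member, at 0.45 (SE 0.18). Treated rats ranged from 6.80 to 7.71 (median 7.22) and vehicle rats from 6.32 to 7.53 (median 6.66), with 8 of 8 treated rats above the vehicle mean. Fos itself gave -0.02 (SE 0.08) on the probe set 1371283_at and -0.38 (SE 0.32) on 1375043_at, where vehicle rats ranged from 5.72 to 8.50. Egr1 gave -0.003 (SE 0.15), with treated rats from 11.03 to 11.75 and vehicle rats from 11.04 to 12.10. The Fos 1371283_at and Egr1 values changed sign in some fits, between values near 0. Rassf5, a Ras effector, gave 0.21 (SE 0.08), with 5 of 8 treated rats above every vehicle rat.

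**Figure D4:**
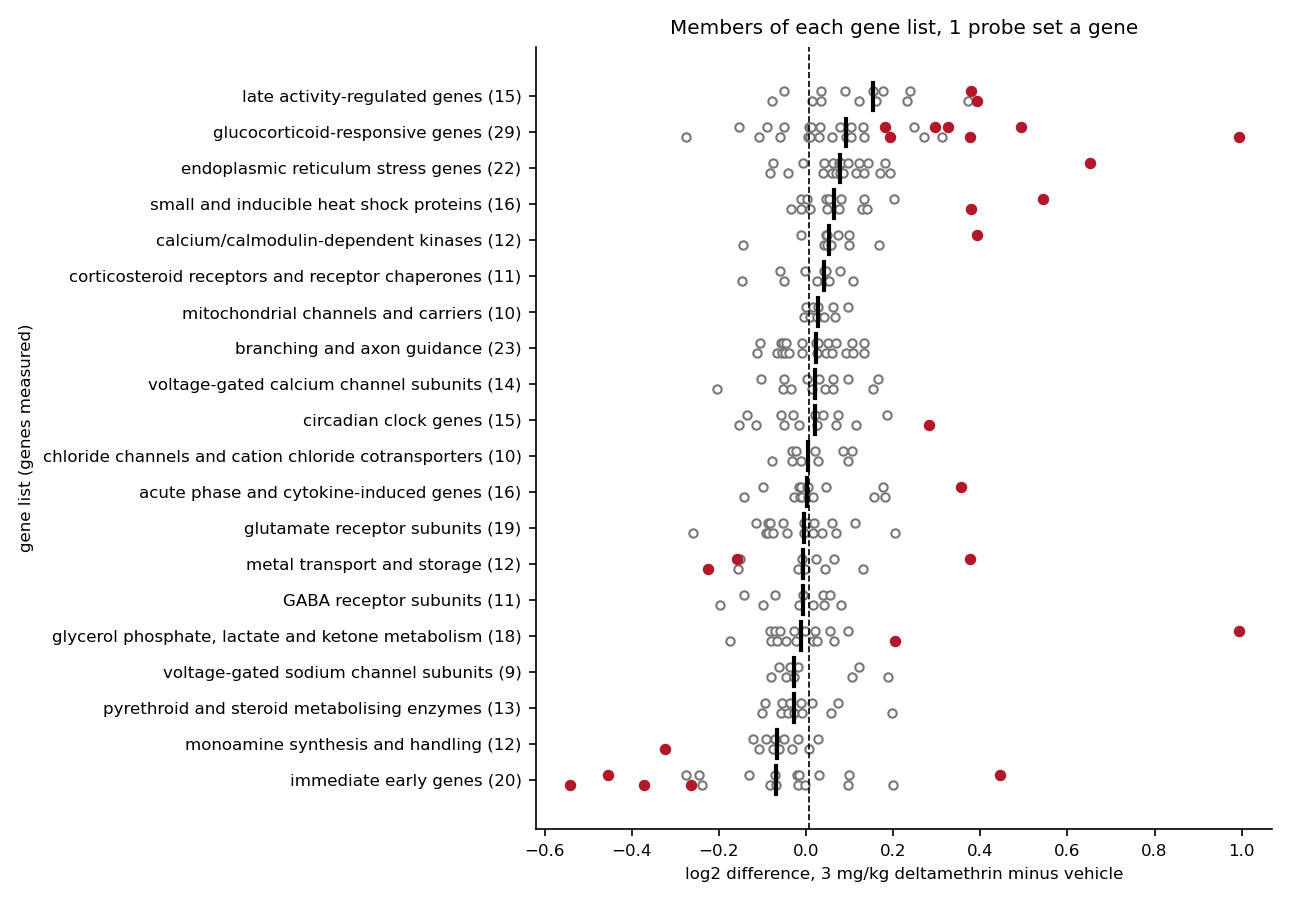
Log2 difference between 3 mg/kg deltamethrin and vehicle (horizontal axis) of each gene in 20 functional lists (vertical axis, with the number of genes measured). Filled red points had an unadjusted p under 0.05 with group means only, black bars are list medians and the dashed line is the median of all 14217 genes, 0.01; list medians run from -0.07 in immediate early genes to 0.15 in late activity-regulated genes.

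The endoplasmic reticulum stress list had 18 of 22 members higher and a median of 0.08. Its 1 member at an unadjusted p under 0.05 was Hyou1, a chaperone of the endoplasmic reticulum, at 0.65 (SE 0.30). Treated rats ranged from 9.37 to 9.95 and vehicle rats from 7.57 to 9.75. The vehicle rats of array group 1 were the low ones: the difference was 1.44 in array group 1 and -0.04 in array group 2, and the interaction had an unadjusted p of 0.00258 and an adjusted p of 1.00 in limma. With the block, Hyou1 gave 0.56, and Hspa5 (0.17, SE 0.12, without it), the master chaperone of that compartment, and Pdia4 (0.18, SE 0.13), a disulfide isomerase, also had an unadjusted p under 0.05.

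Of the targets and partners of neuronal firing, few members stood out. The 9 voltage-gated sodium channel subunits, the family that pyrethroids act on, had 0 members at an unadjusted p under 0.05 in either fit and lay between -0.08 and 0.19. Scn4b, an auxiliary subunit, had the lowest p (0.19, SE 0.14). The main subunits Scn1a, Scn2a and Scn3a gave -0.08, -0.02 and -0.03 with standard errors of 0.23 to 0.27, so the list's 95% intervals reached from -0.62 to 0.53. The 14 calcium channel subunits had 0 such members, and 1 with the block, Cacnb1 (0.17, SE 0.17, without it). The 10 chloride channels and cation chloride cotransporters had 0 in either fit, with Clic4 at 0.09 (SE 0.07). The 19 glutamate receptor subunits had 0, and with the block 1, the obligatory NMDA subunit Grin1 (0.11, SE 0.11, without it). The 11 GABA receptor subunits had 0 in either fit, with Gabbr1 at 0.08 (SE 0.05). Among 12 calcium/calmodulin-dependent kinases Camk1g was the 1, and Dapk1 and Camkk1, at 0.10 each, joined it with the block.

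In monoamine synthesis and handling 10 of 12 members were lower, with a median of -0.07. Ddc was the 1 at an unadjusted p under 0.05, and Slc18a2, the vesicular monoamine transporter, joined it with the block (-0.11, SE 0.06, without it). The cell bodies of monoamine neurons lie outside cortex. In bulk tissue, fewer cells of a type and less RNA per cell cannot be told apart.

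Glycerol phosphate, lactate and ketone metabolism split evenly, with 8 of 18 members higher and 10 lower. Gpd1 and Lpin2, a phosphatidate phosphatase of glycerolipid synthesis, were the 2 at an unadjusted p under 0.05. Lpin2 ranged from 8.98 to 9.52 in treated rats and from 8.67 to 9.24 in vehicle rats, a difference of 0.21 (SE 0.08). Gpd2, the mitochondrial partner of Gpd1, gave 0.02 (SE 0.10).

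In metal transport and storage, Mt2A was the 1 higher and Slc39a8 and Slc40a1, the iron exporter ferroportin, the 2 lower members of 12, with Slc40a1 at -0.16 (SE 0.07). Mt1 gave 0.13 (SE 0.08). Among 16 acute phase and cytokine-induced genes, Lrg1, a secreted glycoprotein, was the 1 higher at 0.36 (SE 0.16), in 8 of 8 rats, and Stat3 (0.18, SE 0.11, without the block) joined it with the block. The cytokines Il1b, Il6 and Tnf, named after their values were seen, lay between -0.03 and 0.02.

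Among 15 circadian clock genes, Cry1, a repressor of the clock, was the 1 higher, at 0.28 (SE 0.13), and Cry2 (0.12, SE 0.09, without the block) joined it with the block. Branching and axon guidance, by the brightest probe set of each gene, had 0 of 23 members at an unadjusted p under 0.05 in either fit. They lay between -0.11 and 0.13, with Nrp1, a semaphorin receptor, at 0.13 (SE 0.08). Ret entered this list at 0.02, and its dimmer probe set 1370989_at, described above, gave 0.25 (SE 0.07). The study's dose-responsive list held a probe set each of Ret, Slit2 and Timp3, all members here, so the count depends on the probe sets taken. Mitochondrial channels and carriers had 0 of 10, with Vdac1, the outer membrane channel, at 0.06 (SE 0.04). Pyrethroid and steroid metabolising enzymes had 0 of 13, and with the block 1, Por, the reductase that serves cytochromes P450 (0.20, SE 0.18, without it).

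Of the 11 marker lists, 3 had every member on the same side of 0: striatal neurons, inhibitory neurons and choroid plexus. All 10 striatal neuron markers were higher, with a median of 0.14, and Pdyn (0.31, SE 0.13) and Pde10a (0.21, SE 0.10) had an unadjusted p under 0.05. The list mean of a treated rat lay between -0.05 and 0.27 relative to the vehicle mean, and that of a vehicle rat between -0.32 and 0.48. All 9 inhibitory neuron markers were higher, by 0.03 to 0.15, with 0 at that threshold and 2 with the block, Pvalb and Sst. Both were above the same vehicle rats at every dose of either compound, Pvalb by 0.10 to 0.25 and Sst by 0.08 to 0.14. Their direction was thus not particular to 3 mg/kg deltamethrin. Some neuropeptides of the late activity-regulated list are made in the cells these marker lists describe, and the part of tissue composition in their values was not tested.

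Oligodendrocyte markers were lower in 11 of 13 members, with a median of -0.05. Opalin, a myelin membrane protein, gave -0.32 (SE 0.13) and was the 1 at an unadjusted p under 0.05. Treated rats had list means between -0.28 and 0.11 around the vehicle mean, and vehicle rats between -0.22 and 0.23.

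Of 12 endothelial and mural markers, Slco1c1, a thyroid hormone transporter of brain capillaries, was the 1 lower, at -0.20 (SE 0.08), and Pecam1 was higher with the block (0.19, SE 0.12, without it). Astrocytes had 0 of 9 and with the block 1, Gjb6 (0.25, SE 0.17, without it), which is also on the glucocorticoid list. Oligodendrocyte precursors (6 genes), microglia (11), blood cells (6), excitatory neurons (9), meninges and fibroblasts (10) and choroid plexus (7) had 0 in either fit, with medians between -0.08 and 0.01. All 7 choroid plexus markers were lower, by 0.03 to 0.13 on the log2 scale, with standard errors up to 0.74. Their members with the lowest p were Vcan at -0.12, C1qc at 0.22, Ptprc at -0.05, Slc17a6 at 0.10, Slc6a13 at 0.07 and Prlr at -0.08.

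The lower doses and permethrin place the 3 mg/kg values beside related treatments, each of 8 rats. All were compared with the same 12 vehicle rats, so their differences from vehicle are not independent. Fkbp5 1388901_at differed from vehicle by 0.02 at 0.3 mg/kg, 0.24 at 1 mg/kg and 0.49 at 3 mg/kg deltamethrin, and by 0.11 at 100 mg/kg permethrin. Gpd1 1371363_at gave -0.13, 0.51 and 0.99, and 0.22 with permethrin. Camk1g gave 0.15, 0.33 and 0.39, and 0.31 with permethrin. The SDs of Gpd1 were 0.51 at 1 mg/kg and 0.39 at 3 mg/kg, against a difference of 0.49 between these groups.

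Set directly against 0.3 mg/kg, 3 mg/kg deltamethrin gave 0 of 31042 probe sets at an adjusted p under 0.05 (0%) and 224 at an unadjusted p under 0.05 (0.722%). Gpd1 was higher by 1.13 (SE 0.22, adjusted p = 0.131, limma) and Fkbp5 by 0.48 (SE 0.10, adjusted p = 0.264, limma). Against 1 mg/kg, 0 passed (0%) and 121 had an unadjusted p under 0.05 (0.39%), with Gpd1 higher by 0.49 (SE 0.22), Fkbp5 by 0.25 (SE 0.10) and Mt2A by 0.33 (SE 0.125).

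Against 100 mg/kg permethrin, 0 passed (0%) and 249 had an unadjusted p under 0.05 (0.802%). The doses of the compounds differ, so these values describe the doses given and not the compounds as such. Fkbp5 was higher with deltamethrin by 0.38 (SE 0.10), Gpd1 by 0.78 (SE 0.22), Gpatch4 by 0.47 (SE 0.12) and Mt2A by 0.34 (SE 0.125), and Ddc was at -0.32 (SE 0.09). Heg1 gave -0.01 (SE 0.09) and Crh -0.02 (SE 0.11). Fos 1375043_at differed from vehicle by 0.66 at 100 mg/kg permethrin and by -0.38 (SE 0.32) at 3 mg/kg deltamethrin. It was also below vehicle at the lower doses of both compounds. The differences were -0.79 and -0.72 at 1 and 10 mg/kg permethrin, and -0.16 and -0.38 at 0.3 and 1 mg/kg deltamethrin.

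**Figure D5:**
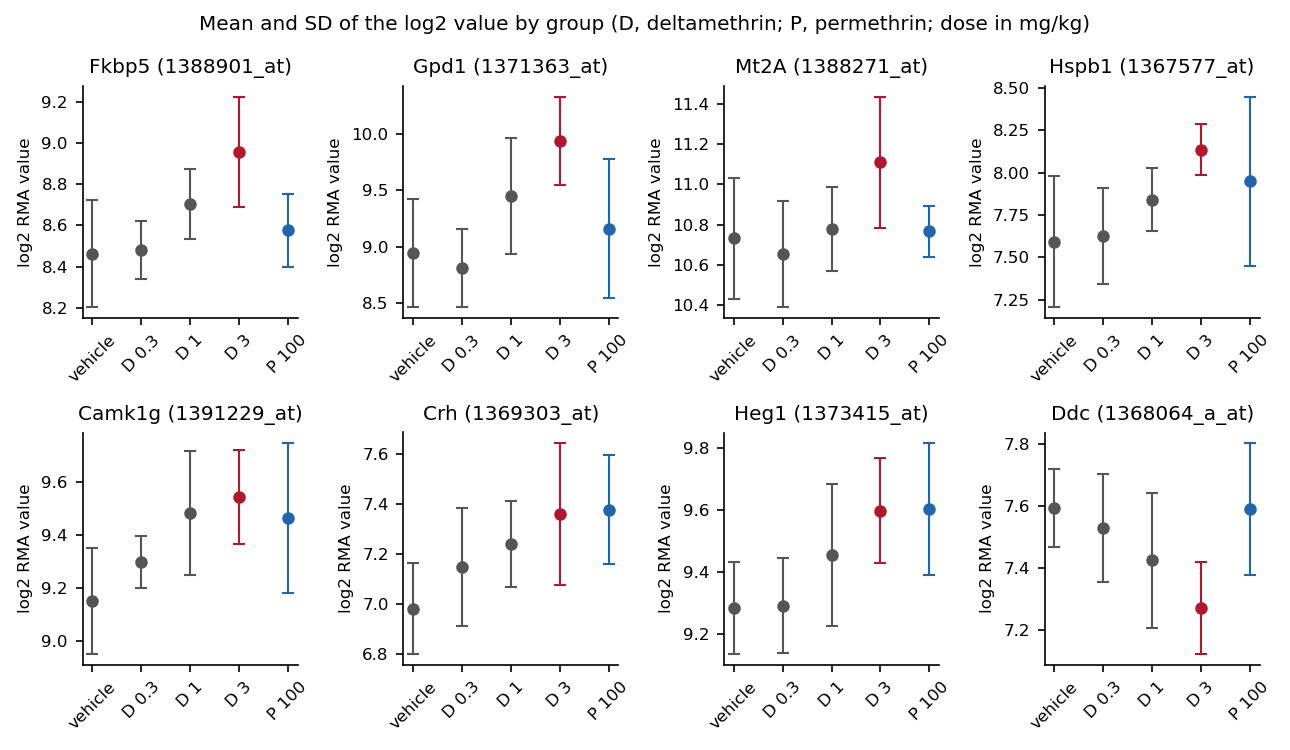
Mean and SD of the log2 value (vertical axis) in vehicle (12 rats), deltamethrin at 0.3, 1 and 3 mg/kg and permethrin at 100 mg/kg (8 rats each) for 8 probe sets. Fkbp5, Gpd1, Mt2A and Hspb1 are highest at 3 mg/kg deltamethrin, Heg1 and Crh are about as high with permethrin, and Ddc is lowest at 3 mg/kg deltamethrin.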

How the data were processed

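Frontal cortex RNA of 60 rats was measured on 1 Affymetrix rat genome array each, and groups were taken from the sample labels. The authors deposited log2 values of 31042 probe sets made with RMA, whose quantile step and probe summary can compress fold changes. The platform annotation gave 20826 probe sets 1 gene symbol, 436 several and 9780 none, and those with several or none were named by ID. Tests used limma 3.58.1 (R 4.3.3) in 1 model of the 60 arrays, and p-values were adjusted by Benjamini-Hochberg across every probe set. Tables and figures used Python 3.11.15 with numpy 2.4.6, scipy 1.17.1, pandas 2.3.3, scikit-learn 1.9.0 and matplotlib 3.10.9.

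Array groups came from a mixture of 3 components on the first and second principal components (58.0% and 10.8% of the variance). The largest component, 36 arrays, was array group 2. The array groups match the replicate numbers exactly and, in size, the cohorts of the study's methods, which were dosed on different days, but no label names a cohort. The named genes were every probe set called in either fit, the 12 genes with the lowest p in each direction, the genes the study took to qRT-PCR, up to 4 members of each list in order of p, and the 2 unnamed probe sets with the lowest p in each direction. The comparison, lists and genes were chosen with earlier results of these data known. The fits were tested on simulated data. Promoters and their build, GRCr8, came from RefSeq. Each rat was a replicate, and cage mates were not identified.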

Additional observations from a re-analysis of the deposited data

Results flagged for a closer look

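In 4 named probe sets 1 treated rat stood apart from the other 7, by a gap to the nearest rat that exceeded Dixon's critical share of the group's range. Chance flags about 1 in 20 groups, and 80 probe sets were examined. Ubash3b 1373298_at was 8.58 in replicate 2 against 8.34 in the next rat. Sult1a1 1370019_at was 9.80 in replicate 4 against 8.90. Bves 1375752_at was 4.54 in replicate 8 against 4.45. Vdac1 1367706_at was 12.04 in replicate 5, the lowest rat, against 12.12.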

How the results depend on the processing

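The count of probe sets at an adjusted p under 0.05, 0 with group means only, became 3 when array group was a block, 5 when the first principal component was a covariate, 11 with both, 7 with array quality weights and 4 with 3 array sets as a block (chosen after seeing the data). It was 1 with array medians subtracted and 1 without dim probe sets, and between 0 and 2 with 1 rat left out. At an unadjusted p under 0.05 the 421 probe sets became 953, 1298, 2137, 1642 and 1263 in the first 5 of these, in that order, and 277 without dim probe sets (of 21870). In limma there were 228 in array group 1 alone and 988 in array group 2 alone (both chosen after seeing the data). With 1 rat left out there were between 247 and 648, the lowest without replicate 7 of 3 mg/kg and the highest without vehicle replicate 7. A Dunnett test gave 159 at a p under 0.05 and 0 after adjustment over probe sets. Its p already allows for the 3 deltamethrin doses, so 159 is not directly comparable with 421. It was run on all probe sets, whereas the study's methods used it only on those that passed a regression filter and an ANOVA. With group means only and 1 rat left out, Fkbp5 1388901_at passed in 5 of 20 fits and Gpd1 1371363_at in 3.

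Replicate numbers did not pair the rats: same-numbered rats correlated between -0.611 and 0.578, 3 of 8 over 0.1, and 1 of 8 best with its own number. The replicate block gave 0 calls and 670 probe sets at an unadjusted p under 0.05, and turned Camkk1 to -0.038 and Sst to -0.002.

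Of 80 named probe sets, 73 kept their direction in every alternative and 7 did not, all but Hyou1 with differences of 0.10 or less. Egr1 was 0.040 under the block, 0.010 under block and component together, 0.011 with medians subtracted, 0.048 with array weights and 0.120 in array group 2, and -0.056 to 0.062 with 1 rat left out. Fos 1371283_at was 0.006, 0.023 and 0.070 with the block, with weights and in array group 2, and -0.051 to 0.022 with 1 rat left out. Bdnf 1368678_at was 0.000 with quantile normalization repeated and -0.037 to 0.001 with 1 rat left out. Slc6a13 was -0.011 with 3 array sets as a block, and Hyou1 -0.042 in array group 2 alone. The cause was not tested.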
